A study of Mus musculus with 6 samples.

Results

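The regions described here were the KAP1 peaks at gene promoters that were called in the BJ1 line and had no counterpart in the JB1 line. They were chosen by their presence and absence in peak lists: a peak of the BJ1 KAP1 list was kept when it lay on an autosome, shared no base with any JB1 KAP1 peak or with any ZFP57 peak of either line, and had a protein-coding gene start of GENCODE M1 inside it or at most 1000 bp from its nearest edge. This gave 1956 regions (the members) of 72535 BJ1 KAP1 peaks, and of 123233 peaks in the 4 lists together. BJ1 and JB1 are male F1 hybrid embryonic stem cell (ESC) lines from reciprocal crosses of the mouse strains C57BL/6 (B6) and JF1, B6 mother and JF1 father for BJ1 and the reverse for JB1. Both were untreated, and chromatin of each was immunoprecipitated with an antibody against ZFP57 and an antibody against KAP1 and sequenced. Each line and antibody had 1 library, so cell line, direction of cross and library cannot be told apart, no p-value was computed, and the intervals below (95%, exact Clopper-Pearson, in parentheses) cover counting error only. The lists hold peak positions on NCBI37/mm9 and neither read counts nor scores, so the depth behind a peak is unknown and peak width was the one measure of size. The BJ1 KAP1 list was longer than the JB1 KAP1 list, with 72535 against 38713 peaks, and sequencing depth, enrichment and binding cannot be told apart as sources of that difference.

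KAP1 (TRIM28) is a co-repressor that does not bind DNA by itself in the classical model. It is brought to chosen sites by zinc-finger proteins with a KRAB domain, such as ZFP57, and recruits the H3K9 methyltransferase SETDB1 and the HP1 proteins, so that the site acquires H3K9me3. In ESCs it is known for silencing endogenous retroviruses and for keeping the methylated allele of imprinting control regions methylated. KAP1 has also been mapped at promoters, among them those of zinc-finger genes.

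Promoter sequence from inside 6 members is printed as examples: histone promoters, which carried members more often than any other gene list, the members richest in ZFP57-type hexamers, and members at a DNA methyltransferase gene and at a CpG-poor start. They were picked from 40 candidates among the named genes. All 6 come from members that cover the start, as 54% of members did, so they do not represent the group. Each stretch is mm9 sequence read 5′ to 3′ on the strand of the named gene, lies upstream of its start inside the peak and overlaps no annotated exon. Capitals mark TGCCGC and GGCCGC (the ZFP57 hexamer and its variant), the CCAAT box, the TATA sequence TATAAA, the GC box GGGCGG and GCATGCGC (part of the NRF1 motif), each on either strand.
Hist1h1c: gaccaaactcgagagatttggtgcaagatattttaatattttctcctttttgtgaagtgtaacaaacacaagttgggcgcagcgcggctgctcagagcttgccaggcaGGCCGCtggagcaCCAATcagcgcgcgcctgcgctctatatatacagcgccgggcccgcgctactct
Hist1h2ai: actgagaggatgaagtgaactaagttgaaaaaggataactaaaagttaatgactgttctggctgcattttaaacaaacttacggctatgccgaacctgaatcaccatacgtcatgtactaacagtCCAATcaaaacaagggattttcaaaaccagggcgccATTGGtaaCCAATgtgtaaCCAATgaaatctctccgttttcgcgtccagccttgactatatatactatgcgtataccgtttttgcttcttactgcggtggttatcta
H2afx: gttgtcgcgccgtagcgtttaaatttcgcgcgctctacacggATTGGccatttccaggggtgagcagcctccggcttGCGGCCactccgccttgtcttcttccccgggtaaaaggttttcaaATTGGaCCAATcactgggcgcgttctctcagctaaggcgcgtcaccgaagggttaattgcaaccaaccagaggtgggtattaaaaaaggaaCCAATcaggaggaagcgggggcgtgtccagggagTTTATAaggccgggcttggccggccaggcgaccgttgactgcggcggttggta
Xpo1: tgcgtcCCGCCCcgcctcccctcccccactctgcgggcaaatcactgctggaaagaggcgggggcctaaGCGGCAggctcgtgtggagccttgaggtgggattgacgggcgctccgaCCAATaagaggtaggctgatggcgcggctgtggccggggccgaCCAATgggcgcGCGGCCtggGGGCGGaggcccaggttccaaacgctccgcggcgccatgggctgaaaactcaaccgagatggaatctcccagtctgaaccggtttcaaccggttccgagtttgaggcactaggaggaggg
Dnmt1: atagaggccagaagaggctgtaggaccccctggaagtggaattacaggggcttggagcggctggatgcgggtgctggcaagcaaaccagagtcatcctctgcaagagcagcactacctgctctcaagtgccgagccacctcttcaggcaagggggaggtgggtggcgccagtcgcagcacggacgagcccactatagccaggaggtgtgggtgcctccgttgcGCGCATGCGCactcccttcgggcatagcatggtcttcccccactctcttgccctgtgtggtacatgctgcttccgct
Ifitm3: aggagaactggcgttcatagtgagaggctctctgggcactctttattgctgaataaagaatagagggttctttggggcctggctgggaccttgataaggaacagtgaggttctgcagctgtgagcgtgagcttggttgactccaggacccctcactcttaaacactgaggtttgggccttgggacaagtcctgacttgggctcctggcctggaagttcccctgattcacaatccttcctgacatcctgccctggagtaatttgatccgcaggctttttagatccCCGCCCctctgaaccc
The Hist1h1c stretch, upstream of a linker histone H1 gene, was chr13:23830501-23830675 on the plus strand and held 1 CCAAT and 1 GGCCGC. The Hist1h2ai stretch (chr13:21808013-21808280, plus strand) was the whole space between the starts of Hist1h2ai and Hist1h2bl, an H2A and an H2B gene transcribed away from each other, and held 4 CCAAT. H2afx, which encodes the histone variant H2A.X of the DNA damage response, had 4 CCAAT, 1 TATAAA and 1 GGCCGC in chr9:44142498-44142797 (plus strand). Xpo1 encodes a nuclear export receptor, and its stretch (chr11:23155741-23156040, plus strand) held 1 TGCCGC, 1 GGCCGC, 2 CCAAT and 2 GC boxes. The stretch of Dnmt1, the maintenance DNA methyltransferase, at chr9:20757318-20757617 (minus strand) held 2 overlapping copies of GCATGCGC and no ZFP57-type hexamer. Ifitm3 encodes an antiviral membrane protein. Its stretch (chr7:148196670-148196969, minus strand) held 4 CpG and 1 GC box, against 26 CpG in the Xpo1 stretch of the same length.

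Which BJ1 KAP1 peaks ended up in the group followed from 4 steps. Of 72535 peaks, 68471 lay on autosomes, 37660 of these shared no base with a JB1 KAP1 peak, and 106 of the 37660 were dropped because they met a ZFP57 peak. Of the remaining 37554 peaks, 1956 lay at a promoter, which was 5.21% (4.99 to 5.44). The same share was 2.23% (2.05 to 2.42) for the BJ1 KAP1 peaks that overlapped a JB1 KAP1 peak (574 of 25764, no ZFP57) and 1.34% (1.04 to 1.71) for the KAP1 peaks of JB1 with no BJ1 counterpart (64 of 4764). As a scale, a 600 bp window placed on the 150 bp grid of the lists lay within 1000 bp of a protein-coding start at 2.11% of all autosomal positions. Members were thus 75.6% (73.9 to 77.3) of the 2586 autosomal promoter peaks of the BJ1 KAP1 list. In genes, 2050 of 21418 autosomal protein-coding starts (9.57%) had a member within 1000 bp. By comparison, 617 starts (2.88%) had a KAP1 peak found in both lines and 72 (0.336%) a KAP1 peak found only in JB1, both without ZFP57. No peak of the 4 lists lay at 18597 starts (86.8%).

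Few of the members lay close to a JB1 peak. The median distance to the nearest JB1 KAP1 peak was 35101 bp (interval of the median 32701 to 36451), and 53 of 1956 members (2.71%) had such a peak within 1000 bp. For the 35598 BJ1-only peaks away from promoters (distal peaks) the median was 26701 bp. The members at Cyb5r1, a cytochrome b5 reductase gene, and Rnf187, a RING-type ubiquitin ligase gene, directly abutted a JB1 peak with no base between them. Of the 2050 genes with a member, 36 also had a KAP1 peak of both lines at the start, 71 had 2 or more members, and 451 (22%) had a JB1 KAP1 peak somewhere inside the gene, against 18.7% of the genes without a member.

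Members were mostly narrow. The median width was 600 bp (quartiles 600 and 750, range 300 to 20850 bp), against 750 bp for promoter peaks shared by both lines and 450 bp for those found only in JB1. Widths follow the 150 bp grid of the lists, so neighbouring medians here differ by the smallest step the lists can show. Members wider than 1000 bp made up 12.9%, compared with 27% of shared promoter peaks and 5.46% of BJ1-only distal peaks. Wider members covered a gene start more often: 34.7% (30.2 to 39.4) of the 429 members of 300 or 450 bp did so, and 71.4% (65.4 to 76.9) of the 252 members of 1050 bp or more. A wider peak has more chance to reach a start under the rule, so this order is in part built in.

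**Figure D1:**
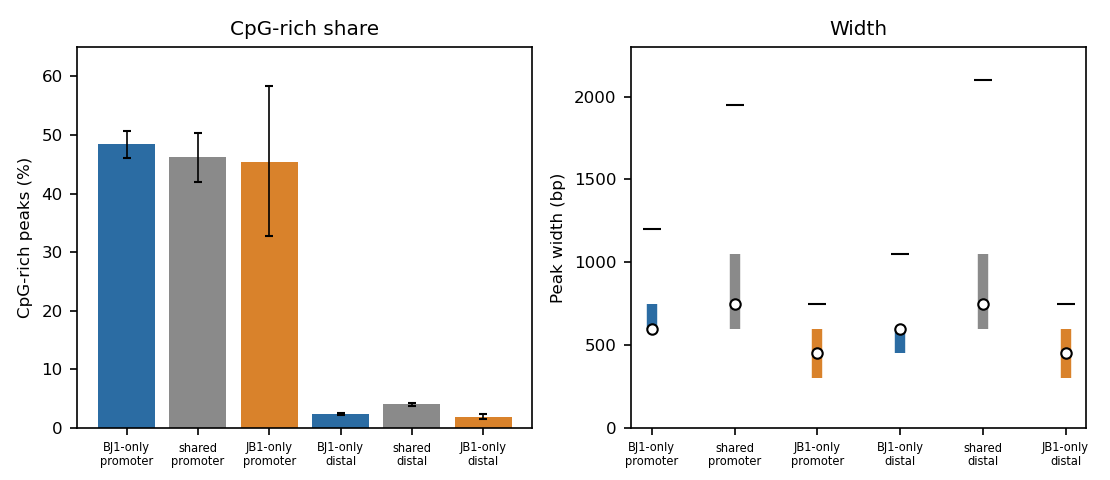
CpG-rich share (left, % of peaks, bars from 0 with exact 95% intervals for counting error) and width (right, bp, coloured bar from the lower to the upper quartile, circle at the median, dash at the 95th percentile) of the members (BJ1-only promoter) and of 5 other sets of KAP1 peaks without ZFP57. The 3 promoter sets lie between 45.3% and 48.4% CpG-rich and the 3 distal sets between 1.91% and 4.03%, and members have a median width of 600 bp against 750 bp for shared promoter peaks.

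The distance rule reaches equally far to both sides of a start, so a centre near 0 is largely set by it. The peak covered the start in 1056 of 1956 members (54%, 51.7 to 56.2), lay wholly upstream of it in 436 (22.3%) and wholly downstream in 464 (23.7%), and the median offset of the peak centre was 5 bp (interval of the median -11.5 to 23.5). Shared promoter peaks covered the start in 53.1% (49 to 57.3), so their interval held the value of the members, and their median centre offset was 57.5 bp (20.5 to 98.5). The centre lay within 250 bp of the start in 43.3% (41 to 45.5) of members and 36.8% (32.8 to 40.9) of shared promoter peaks. The 1000 bp limit cut through a continuous spread of distances. Just inside it were the members at Olfr1510, an olfactory receptor gene, at 999 bp, and at Fam133b at 994 bp. Just outside were BJ1-only peaks 1003 bp from Gpr56, an adhesion G-protein-coupled receptor gene, and 1004 bp from Gvin1, a gene for a large interferon-induced GTPase. Agtrap, Timp4 and Pnma2 were the 3 genes with 3 members each around the start. At Pnma2, which encodes a paraneoplastic antigen, the 3 peaks were 600, 750 and 450 bp wide and lay upstream of the start, across it and downstream of it.

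Base composition split the members into 2 groups of nearly equal size at the limits used, and less evenly at stricter ones (22.1% CpG-rich, 20.3 to 24). A peak was called CpG-rich when its GC content was above 50% and its CpG observed/expected ratio above 0.6. By this rule 946 members (48.4%, 46.1 to 50.6) were CpG-rich, compared with 46.2% (42 to 50.3) of shared promoter peaks, 45.3% (32.8 to 58.3) of JB1-only promoter peaks and 2.39% (2.23 to 2.55) of BJ1-only distal peaks. Among gene starts, measured in a 600 bp window centred on each, 48% of all 21418 were CpG-rich and 64.2% of the 2050 with a member. Put the other way, 12.8% (12.2 to 13.5) of CpG-rich starts and 6.58% (6.13 to 7.06) of the other starts had a member. Shared promoter peaks were likewise found at 3.7% (3.35 to 4.09) of CpG-rich and 2.12% (1.86 to 2.4) of other starts.

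The CpG-rich members sat more tightly on the start. Of these 946 members, 71.2% (68.2 to 74.1) covered it, against 37.8% (34.8 to 40.9) of the 1010 others, although both had a median width of 600 bp. CpG content was read from the peak itself, so the place of a peak can set its group. The Pole2 member, 874 bp upstream of a CpG-rich start, had a ratio of 0.11. This order may therefore be in part built in. The others lay upstream in 34.4% and downstream in 27.8%, with 9.41% and 19.3% for the CpG-rich ones. CpG-rich members also had starts of 2 or more genes within reach more often, in 12.6% against 4.55%. Over all members this share was 8.44% (7.24 to 9.76), beside 8.01% (5.93 to 10.5) in shared promoter peaks.

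**Figure D2:**
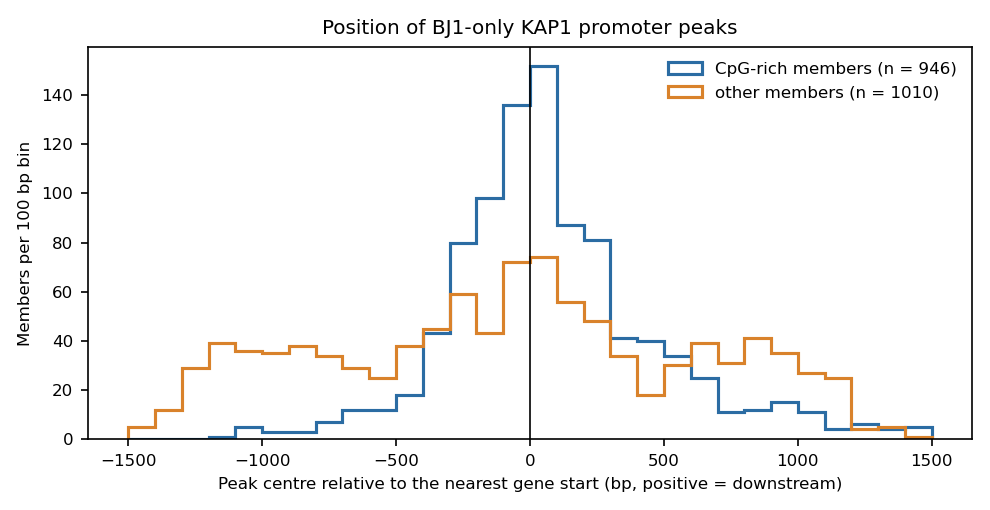
Number of members per 100 bp bin (y) by the distance of the peak centre from the nearest gene start (x, bp, positive downstream), for 946 CpG-rich members (blue) and 1010 others (orange). CpG-rich members pile up around 0, where 71.2% cover the start, while the others spread over the whole window and 37.8% cover it. CpG content was read from the peak itself. Outside the plotted range lie 3 of the other members.

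ZFP57-type hexamers were counted in the members and in windows at gene starts. TGCCGC, the hexamer ZFP57 binds when its CpG is methylated, was present on either strand in 607 members (31%, 29 to 33.1), GGCCGC in 837 (42.8%), and a pair of such hexamers starting less than 38 bp apart in 288 (14.7%). All 600 bp windows at gene starts held them in 27.7%, 41.9% and 17.5%, and BJ1-only distal peaks in 7.03%, 6.93% and 0.61%. In the central 300 bp of a member alone, TGCCGC was present in 16.1% (14.5 to 17.8). Peaks vary in width and windows do not, so the windows of genes with and without a member are the closer comparison. TGCCGC was in 36.1% (34.1 to 38.3) of the windows with and 26.9% (26.2 to 27.5) of those without a member, GGCCGC in 53.8% and 40.6%, and a pair in 21.2% and 17.1%. TGCCGC and GGCCGC differ at the first letter and share the other letters, and the 2 motifs can overlap in opposite directions, so a pair need not be 2 separate places. Within CpG-rich windows the shares lay closer together, and those of GGCCGC and of pairs were lower with a member than without. TGCCGC stood in 46.3% (43.6 to 49.1) of the 1317 with and 45.6% (44.5 to 46.6) of the 8969 without a member, GGCCGC in 71.5% (69 to 74) and 73.8% (72.9 to 74.7), and a pair in 31.2% (28.7 to 33.8) and 34.9% (33.9 to 35.9). The GC box GGGCGG was in 87.9% of both. CCGGAA, the core of ETS factor sites, was in 40.4% and 42.7%, and CCAAT in 47.2% and 47.5%. TATAAA was in 9.95% (8.38 to 11.7) and 8.02% (7.46 to 8.6). The most hexamers in a single member were 10 at Xpo1 (3 TGCCGC and 7 GGCCGC, in 1350 bp), followed by 9 each at H2afx and at Nrg2, a neuregulin gene, and 8 each in 8 members, of which Trpm8 and Cdkn2c, the gene of the CDK inhibitor p18, are the widest. The Trpm8 member is 20850 bp wide, so its 8 copies are spread far thinner than those of Xpo1.

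Histone genes carried members more often than any other of the 23 gene lists examined. These are the clustered, intron-poor genes for linker histone H1 and the core histones, most of them transcribed in S phase. A member lay at 43 of 67 histone starts (64.2%, 51.5 to 75.5), beside 9.57% of all starts and 12.5% (11.9 to 13.2) of the CpG-rich starts of all other genes. The highest upper bound among the other lists was 34.5%. No histone start had a KAP1 peak found in both lines or only in JB1. The 43 starts shared 34 peaks, since 17 of the 34 reached 2 or more gene starts, so genes are not separate observations here. These peaks had a median width of 900 bp (450 to 1650), 31 of 34 covered a start and 31 of 34 were CpG-rich. Their median distance to the nearest JB1 KAP1 peak was 18151 bp and the smallest 301 bp.

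All kinds of histone were represented, though not in equal shares. Members stood at 5 of 6 H1 genes, 9 of 11 H3 genes and 11 of 13 H4 genes, and at 9 of 19 H2A and 9 of 18 H2B genes. The intervals of H1 (35.9 to 99.6%), H3 (48.2 to 97.7%) and H4 (54.6 to 98.1%) overlap those of H2A (24.4 to 71.1%) and H2B (26 to 74%). Counts are small and genes share peaks, and whether the types differ was not tested. At the H1 genes Hist1h1a, Hist1h1b, Hist1h1c, Hist1h1d and Hist1h1e (the somatic H1 subtypes, named here after their values were seen) a member covered each start, with widths of 1350, 1350, 1650, 1350 and 1500 bp. The H1 gene without a member was Hist1h1t, which encodes the testis-specific H1t. The neighbouring pair Hist1h2ba and Hist1h2aa, which encode testis H2B and H2A, had none either (these 3 genes were also named after their values were seen). They are a selection from the 24 histone starts without a member, which also include Hist1h4f, Hist1h3c and Hist2h2ac (named afterwards too). By the naming rule the widest members of the list were those of Hist1h1c (chr13:23830501-23832150) and of Hist1h2ai, Hist1h2bl and Hist1h3h, which shared chr13:21807451-21809100. The latter peak covered both of the divergent starts of the first pair and ended 397 bp upstream of Hist1h3h, an H3 gene.

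The histone members came from several loci. On chromosome 13 the Hist1 cluster had a member at 37 of 55 starts, and on chromosome 3 the Hist2 cluster at 5 of 9. Hist4h4 on chromosome 6 (named after its value was seen, like Hist1h2al) had a 900 bp member across its start, and neither of the 2 Hist3 genes on chromosome 11 had any. Apart from Hist1h2al, which lies alone and had no member, the Hist1 genes form 2 blocks. In the 329.1 kb block A, 15 of 23 histone starts had a member, and the block held 20 BJ1 KAP1 peaks without and 9 with a JB1 counterpart. In the 405.4 kb block B these were 22 of 31 starts, 23 peaks and 5 peaks. The 7 other protein-coding genes of block B included 1 with a member and the 3 of block A none.

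**Figure D3:**
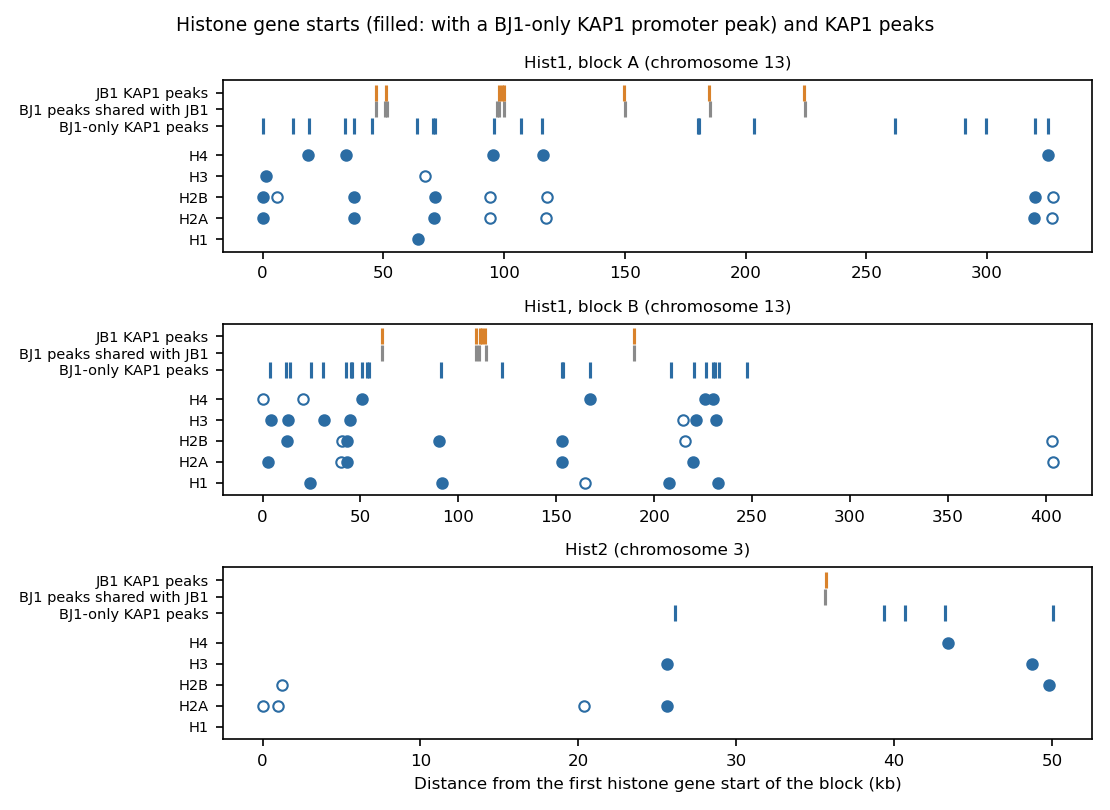
Histone gene starts of 2 Hist1 blocks on chromosome 13 and the Hist2 cluster on chromosome 3, by type (rows H1 to H4) and distance from the first histone start of the block (x, kb). Filled circles are starts with a member, open circles starts without. Tick marks above are the centres of BJ1 KAP1 peaks without a JB1 counterpart (blue), BJ1 peaks shared with JB1 (grey) and JB1 peaks (orange). The blocks have 15 of 23, 22 of 31 and 5 of 9 starts filled, and the JB1 peaks number 8, 6 and 1.

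Some histone genes of a type are near-identical copies, and reads were 50 bp long. The share of a peak's 50-base words that occur again elsewhere in mm9, on either strand, was therefore computed. It was above 50% in 8 of the 34 histone peaks (23.5%, 10.7 to 41.2) and 0 in 5 of them. The peaks at Hist1h1a and Hist1h1b held no repeated word, that of Hist1h1c 8.06%, and those of the H4 genes Hist1h4m and Hist1h4n (named after their values were seen) 86.3% and 86.4%. For the last 2, reads of either gene cannot be assigned with certainty. Histone members were thus found at unique as well as at repeated sequence, and were more repeated than the members as a whole. Of all members, 4.5% had more than 50% of their words repeated. No word was repeated in 79.4% of all members, beside 14.7% of histone peaks. With the BJ1 list reduced to as many of its widest peaks as the JB1 list holds, 42 of 67 histone starts had a member, while the count over all genes fell from 2050 to 1230 (5.74%). Among 600 bp windows at histone starts, TATAAA was present in 29 of 43 with a member and 12 of 24 without, and CCAAT in 36 of 43 and 22 of 24. Of 13 histone variant genes outside the clusters (looked up after the values were seen), 3 had a member (23.1%, 5.04 to 53.8, an interval that holds the 9.57% of all genes): H2afx, with 2, H3f3b, an H3.3 gene, with 1 of 450 bp, and H2afb1. The other H3.3 gene, H3f3a, and H2afj each had 2 KAP1 peaks found in both lines and no member, and H2afz, the H2A.Z gene, had no peak.

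Other housekeeping genes had members about as often as genes in general, and less often than CpG-rich starts. Without the histones, the 8 other housekeeping lists held a member at 44 of 492 starts (8.94%, 6.57 to 11.8), on the background of 9.57%. That interval lies below the 12.5% (11.9 to 13.2) of CpG-rich starts without histones. In these lists, from 69.9% (heat shock proteins and chaperones) to 94.6% (aminoacyl-tRNA synthetases) of starts were CpG-rich, with 91.1% for ribosomal proteins. Cytosolic ribosomal proteins had members at 7 of 79 starts, each covering the start. Rpl7l1, a ribosomal protein-like gene, had the widest at 1050 bp (chr17:46919401-46920450), followed by Rpl37 and Rpl39l at 900 bp and Rpl28 at 750 bp. In the respiratory chain and ATP synthase list, 7 of 89 genes had one, again all across the start. The complex I gene Ndufa13 had the widest of these with 1350 bp, beside 750 bp at Ndufb8 and Ndufs7. Of 49 proteasome genes 4 had a member: Psma5, a core subunit, Psme3 and Psme4, which encode activators, and Psmg3, an assembly chaperone gene.

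Genes of RNA and protein synthesis and of replication had shares whose intervals all hold the 9.57% of all genes. Splicing factors had a member at 4 of 60 starts (6.67%, 1.85 to 16.2), those of Hnrnph1, Prpf39, Snrpd3 and Prpf6, each across the start. Translation initiation factors had one at 7 of 55 (12.7%, 5.27 to 24.5), of which 2 covered the start. The widest was 1350 bp, 340 bp upstream of Eif2b5, a subunit gene of the exchange factor of eIF2, and at Eif4e, the cap-binding protein, a 750 bp member lay 596 bp downstream. Aminoacyl-tRNA synthetases had 3 of 37 (8.11%, 1.7 to 21.9), at Iars2, Tars and Yars2, none of them across the start. Replication proteins had 4 of 40 (10%, 2.79 to 23.7), with Gins4 and Orc4 covered and Mcm10 and Pole2 414 and 874 bp downstream of their member. Heat shock proteins and chaperones had 8 of 83 (9.64%, 4.25 to 18.1), among them Dnajc9, which encodes a histone-binding co-chaperone, and Hspb1, both with 900 bp across the start, and Cct6a, a subunit of the chaperonin TRiC.

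**Figure D4:**
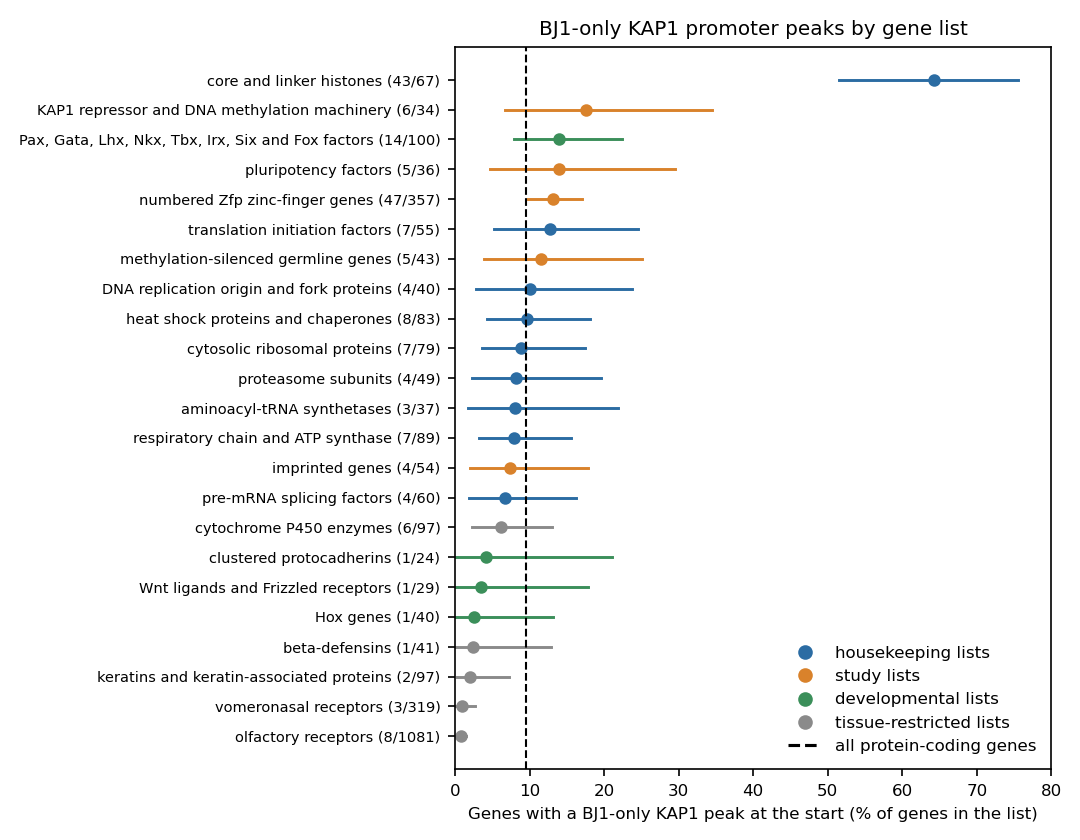
Percent of the genes of each of 23 lists with a member at the start (points, number of genes in parentheses), with exact 95% intervals for counting error, coloured by class of list. The dashed line is the 9.57% of all autosomal protein-coding genes. Histones lie at 64.2%, and 18 lists have intervals that hold the dashed line.

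Zinc-finger genes had a somewhat larger share than all genes, by a margin that depended on the distance to the start. Of 357 genes named Zfp with a number, many of which encode the KRAB proteins that recruit KAP1, 47 had a member (13.2%, 9.84 to 17.1) and 16 (4.48%) a KAP1 peak of both lines, beside 9.57% and 2.88% of all genes. Members stood at 27 of 198 of their CpG-rich starts (13.6%, 9.18 to 19.2) and at 20 of 159 of the others (12.6%, 7.86 to 18.8), with intervals that overlap. Over all genes these shares were 12.8% and 6.58%. The first lies inside the interval of the Zfp genes and the second below it. Of the 47 Zfp genes with a member, 30 had one that covered the start. The widest were at Zfp934 (1350 bp, 697 bp upstream), Zfp560 and Zfp808 (1200 bp each, across the start) and, by order of symbol among 5 genes with 1050 bp, Zfp367 (241 bp upstream). At Zfp934 58.4% of the 50-base words occurred elsewhere, at Zfp808 44.8% and at Zfp560 none. With the BJ1 list reduced to the JB1 number by width, 32 of 357 had a member, 8.96% (6.21 to 12.4) beside 5.74% of all genes. Within 500 bp of the start 37 of 357 had one, 10.4% beside 7.89%, and that interval (7.4 to 14) holds the share of all genes.

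Of the genes of the KAP1 and DNA methylation machinery, 6 of 34 had a member (17.6%, 6.76 to 34.5, an interval that holds the background). At Dnmt1 a 1200 bp member covered the start (chr9:20757001-20758200). At Rif1, which encodes a replication timing and repair factor, a 1050 bp member ended 7 bp upstream. Tet1, a 5-methylcytosine dioxygenase gene, had a 900 bp member 485 bp upstream. At Zfp57 itself, which encodes the zinc-finger protein profiled in this study, a 750 bp member lay 993 bp downstream of the start (chr17:37139101-37139850), just inside the 1000 bp limit. The remaining ones were Dnmt3a and Trim33, named after their values were seen. Trim28 and Setdb1, also named afterwards, had no member.

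Pluripotency factors had 5 of 36 (13.9%, 4.67 to 29.5, an interval that holds the 9.57% of all genes). The Dppa5a member was 1350 bp wide and 317 bp upstream of the start, and the Fbxo15 member 1050 bp wide and across it. Lin28a, an inhibitor of let-7 maturation, had a 900 bp member 656 bp downstream, and Dppa2 a 750 bp member 211 bp downstream. Pou5f1, which encodes OCT4 and was named after its values were seen, had a 750 bp member 732 bp upstream. All 5 lay at CpG-poor peak sequence, with CpG observed/expected ratios from 0.09 at Dppa5a to 0.53 at Lin28a.

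Imprinted genes had members at 4 of 54 starts (7.41%, 2.06 to 17.9, beside 9.57% of all genes), while 8 of the 54 had a ZFP57 peak, or a KAP1 peak overlapping ZFP57, at the start. The 4 were Ascl2 (1200 bp, 819 bp downstream), a placental transcription factor gene, Cdkn1c (600 bp, 755 bp downstream), which encodes the CDK inhibitor p57, and Commd1 and Ube3a (600 bp each, across the start). All 4 members were CpG-rich, and by the rule none met a ZFP57 peak. Germline genes silenced by DNA methylation had 5 of 43 (11.6%, 3.89 to 25.1). Both intervals hold the share of all genes. The imprinted count was 2 of 54 (3.7%, 0.452 to 12.7) within 500 bp of the start, beside 7.89% of all genes. It was also 2 of 54 under both cuts by width, beside 5.3% and 5.74% of all genes. With any transcript start it was 7 of 54 (13%, 5.37 to 24.9), above the 11.3% of all genes on that basis. D1Pas1, an intronless DEAD-box helicase gene of the testis, had the widest with 2250 bp starting 56 bp downstream, and at Dmc1, the meiotic recombinase, a 900 bp member covered the start. Zp3, an egg coat protein gene, and Tuba3a had members 219 bp upstream and 760 bp downstream.

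Developmental regulators had counts whose intervals all hold the 9.57% of all genes. Among Pax, Gata, Lhx, Nkx, Tbx, Irx, Fox and sine oculis homeobox genes, 14 of 100 had a member (14%, 7.87 to 22.4), and the widest were across the starts of Foxd3 (1050 bp), a pluripotency and neural crest factor gene, Foxd2 (900 bp) and Foxh1 (750 bp, as at Tbx20, named after its value was seen), and 248 bp upstream of Six3 (900 bp). With the BJ1 list reduced to the JB1 number by width this list had 5 of 100, beside 5.74% of all genes. Hox genes had 1 of 40 (Hoxd10, 750 bp, 304 bp downstream), Wnt ligands and Frizzled receptors 1 of 29 (Wnt9b), and clustered protocadherins 1 of 24 (Pcdhgc5). The intervals of these 3 lists reach 13.2%, 17.8% and 21.1%, so counts of 1 in lists this short do not set them below the background.

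Olfactory and vomeronasal receptors and keratins, families silent in most cells, had members below the 9.57% of all genes. Olfactory receptors had members at 8 of 1081 starts (0.74%, 0.32 to 1.45), vomeronasal receptors at 3 of 319 (0.94%, 0.194 to 2.72), and keratins and keratin-associated proteins at 2 of 97 (2.06%, 0.251 to 7.25). Within 2000 bp of the start, where all genes had 12.2%, olfactory receptors had 24 of 1081 (2.22%, 1.43 to 3.29) and vomeronasal receptors 10 of 319 (3.13%, 1.51 to 5.69), and with the BJ1 list reduced by width 2 and 1. Beta-defensins with 1 of 41 (2.44%, 0.0617 to 12.9) and cytochrome P450 enzymes with 6 of 97 (6.19%, 2.3 to 13) had intervals that hold the share of all genes. Together these 5 families had 20 of 1635 (1.22%), and 0.673% of their starts were CpG-rich. Of all starts that were not CpG-rich, 6.58% had a member. The keratin interval holds that value, while those of olfactory and vomeronasal receptors lie below it. Cyp2s1 had the widest member of these families with 1350 bp across the start, followed by Cyp1b1, Cyp2c40 and Cyp2j6 with 750 bp each at 450, 954 and 299 bp from it. The shared KAP1 peaks were rare there too, at 8 of the 1635 starts (0.489%). More than 50% of the 50-base words were repeated in 2 of these 20 members, at Vmn1r171 and Olfr726 (the latter named after its value was seen).

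Of the widest members, the largest covered 20850 bp (chr1:90168451-90189300) and spanned the starts of Trpm8, the cold-sensing ion channel, and Hjurp, the chaperone of the centromeric histone CENP-A. The next was 3600 bp wide and lay 874 bp upstream of Lactb2, which encodes a mitochondrial endoribonuclease. Gm3248, D1Pas1, Ifitm3, Terf1, Tmem154, Cdkn2c, Prdx1 and Rpe followed with 2550 to 1650 bp. Terf1 encodes a telomere-binding protein, Prdx1 a peroxiredoxin and Rpe an enzyme of the pentose phosphate pathway. Rpe was 1 of 15 members of 1650 bp and took the last place by its position. Of the 38 members of 1500 bp or more, 8 lay on chromosome 1, which held 114 of all 1956 members. Members that covered starts of both strands numbered 62 (3.17%, 2.44 to 4.05), near the 2.96% (1.73 to 4.7) of shared promoter peaks. The 5 widest of these were at Trpm8 and Hjurp, Fbxo36 and Trip12 (both of ubiquitin ligase genes), Hist1h2ai and Hist1h2bl, the predicted genes Gm2382 and Gm10634, and, as 1 of 4 such members of 1350 bp, Gin1 and Ppip5k2.

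Genes with members were spread over all autosomes. The share of genes with a member ran from 7.29% (6.21 to 8.49) on chromosome 7 to 14.5% (12.3 to 17.1) on chromosome 13, with 9.57% over all. Chromosome 13 without its histone genes had 89 of 811 (11%, 8.91 to 13.3). Chromosome 14 came next with 11.9% (9.87 to 14.1), and its first 10 Mb hold a family of predicted genes of which 20 of 114 had a member. Runs of 5 or more neighbouring genes that each had a member occurred 5 times. They were runs of histone genes in 4 cases (the longest had 9 genes from Hist1h2bf to Hist1h2bc, the predicted gene Gm17658 among them) and once, on chromosome 10, of Kitl and 7 predicted genes from Gm8701 to Gm4308. Of the 7 members at these predicted genes, 6 had more than 50% of their 50-base words repeated, so reads of this length cannot place them with certainty.

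**Figure D5:**
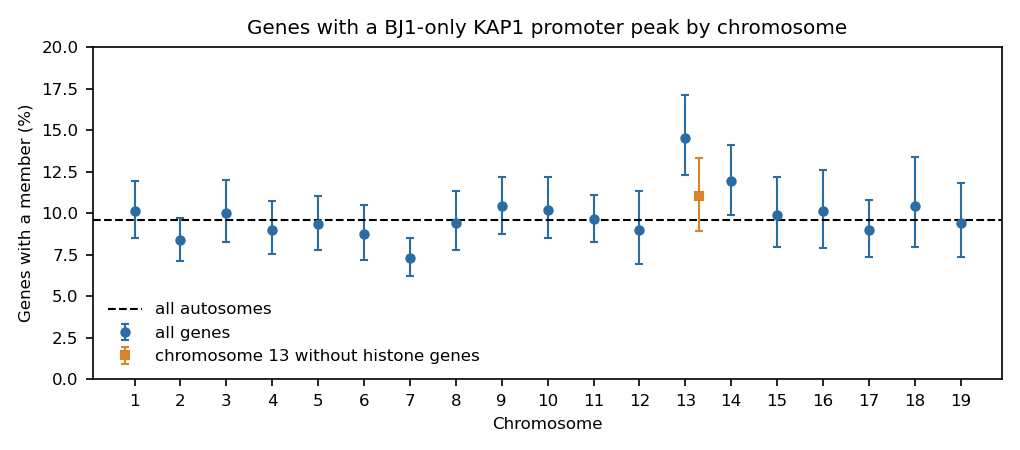
Percent of protein-coding genes with a member (y) on each autosome (x), with exact 95% intervals for counting error. The dashed line is the 9.57% over all autosomes and the orange square is chromosome 13 without histone genes (11%). Chromosome 13 is highest with 14.5% and chromosome 7 lowest with 7.29%.

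Repeated sequence was a feature of few members outside such families. The 50-base words of 1554 of the 1956 members (79.4%) all occurred once in mm9, compared with 66.4% of shared promoter peaks. In 88 members (4.5%, 3.62 to 5.51) more than 50% of the words were repeated, beside 10.1% (7.76 to 12.9) of shared promoter peaks and 6.25% (1.73 to 15.2) of JB1-only ones. Of these 88, 62 lay at a predicted Gm gene, 39 on chromosome 14 and 8 at a histone gene. In 29 members every word was repeated, so that with reads of this length the peak cannot be assigned to a single copy. Such members are positions as the authors' alignment placed them.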

How the data were processed

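ChIP-seq libraries of ZFP57 and KAP1 from BJ1 and JB1 ESCs (1 per line and antibody, 4 of 6 samples) were analysed, without the 2 inputs. The authors sequenced single-end 50 bp reads, mapped them with Bowtie to NCBI37/mm9 with up to 2 mismatches and called peaks with MACS at P 1e-05. Per the labels' processing notes Bowtie was 0.12.7, CASAVA 1.8.2, SAMtools 0.1.18 and bedtools 2.14.3-1. The deposited files hold peak positions, with no score, p-value or count, so depth is unknown and no test or depth-based filter could be applied.

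Peaks were compared by overlap of at least 1 bp and placed by GENCODE M1 gene starts (mm9) with Python 3.11.15, numpy 2.4.6, scipy 1.17.1, pandas 2.3.3 and pysam 0.24.0. CpG content, motifs on both strands and repeated 50-base words were read from the mm9 sequence of each whole peak, and promoter windows were 600 bp centred on each start. Intervals of shares are exact Clopper-Pearson and those of medians come from binomial ranks, both for counting error only. Peaks and neighbouring genes are not replicates. The class rules were tested on simulated data, and 400 of 400 made-up intervals got the right class. Members and the 23 gene lists were chosen with earlier results of these data known, so no list is independent support. Named genes were the 10 widest members, up to 4 genes a list by width, the 5 members with the most hexamers, the peaks nearest each limit, genes with 3 members and the 5 widest members across starts of both strands. Other names are stated to have been chosen after their values were seen, and so are the predicted genes named for the runs of neighbouring genes. Alternatives were other distances to the start (500 and 2000 bp), 3 other overlap rules, 2 cuts by width, transcript starts, sex chromosomes, predicted genes left out, stricter CpG limits, the central 300 bp for TGCCGC and, added after seeing the data, chromosome 1 left out.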

Additional observations from a re-analysis of the deposited data

How the results depend on the processing

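No paired analysis was possible because each line and antibody had 1 library and no result comes from a test. The main values were 1956 members, 2050 genes, a median width of 600 bp, 54% of members across the start, 48.4% CpG-rich, 31% with TGCCGC, a median distance of 35101 bp to a JB1 KAP1 peak and 190 genes of the lists with a member. With a distance to the start of 500 bp, 66.8% covered it, 56% were CpG-rich and 34.2% held TGCCGC, and with 2000 bp these were 41.8%, 38.9% and 26.8%. The widest 50% of the BJ1 list left 1051 members at 1135 genes, 125 of them in the lists, with a median width of 750 bp, 62.7% across the start, 51.5% CpG-rich and 35.8% with TGCCGC. Reducing the BJ1 list to the JB1 number by width left 1140 members at 1230 genes, with 750 bp, 62.1%, 51.8% and 36.5%. Transcript starts gave 42.4% CpG-rich and 28.9% with TGCCGC, leaving out predicted genes 51.7% CpG-rich, the stricter CpG limits 22.1%, and the central 300 bp 16.1% with TGCCGC. The other 66 values moved by less than the counting interval or, for counts, less than 1.5 times, among them all those with chromosome 1 left out. Histone starts with a member numbered 41 to 51 of 67 over the alternatives. Of the 23 gene lists, 15 stayed on the same side of the share of all genes in every alternative run on them. The 8 others, the ribosomal protein, respiratory chain, proteasome, aminoacyl-tRNA synthetase, replication, heat shock, imprinted and developmental factor lists, crossed it in at least 1. Developmental factors numbered 5 to 16 of 100 and pluripotency factors 3 to 9 of 36. With neither depth nor scores in the lists, a JB1 peak that just missed the caller's threshold and an absent one look the same, and how many members are of the first kind was not tested.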

Other observations

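Gene families defined by the opening letters of the symbol were also counted, after the values were seen, for the 137 families of at least 15 genes, beside the 9.57% of all genes. Beside the histones, the highest shares were 5 of 16 Atg genes (31.2%, 11 to 58.7), which act in autophagy (Atg2a, Atg4c, Atg5, Atg16l1 and Atg16l2), and 5 of 18 genes whose symbols begin with Mapk (27.8%, 9.69 to 53.5), among them the JNK genes Mapk9 and Mapk10. Next came 4 of 15 Scn sodium channel genes (26.7%, 7.79 to 55.1), and at 25% 5 of 20 Arhgef genes (8.66 to 49.1), 4 of 16 Pex genes of peroxisome assembly and 4 of 16 genes whose symbols begin with Pik (7.27 to 52.4 each). The intervals of these last 4 families hold the share of all genes. Among these 6 families 1 gene, an Arhgef gene, had a KAP1 peak of both lines at its start. With 137 families counted and intervals this wide, such shares are values to look at and not findings. At the other end, 23 families had no member. Only for the 38 Tas taste receptor genes does the interval (up to 9.25%) end below the 9.57% of all genes, while that of the 21 Ugt glucuronosyltransferase genes, for instance, reaches 16.1%. The Tas interval still holds the 6.58% of all starts that were not CpG-rich.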
